A study of Mus musculus with 4 samples.

Results

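The genes described here are 7 markers of neural crest derivatives, Sox10, Foxd3, Tubb3, Stmn2, Dbh, Th and Dct, which were chosen by name from the 34682 gene symbols of a count table of developing mouse ovaries. They mark glia, autonomic neurons and melanoblasts, cells that can lie in or beside the gonad. All 7 had at least 1 count, and 4 of them (Sox10, Tubb3, Stmn2 and Dct) passed the filter on low counts that left 15442 genes for testing. The other 3 (Foxd3, Dbh and Th) had at most 10 counts in every library, so their counts are given without a test.

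The study asked what misplaced Sall1 does to the ovary. It sequenced 2 Sall1-overexpressing mutant libraries and 2 wild-type libraries, numbered as replicates 1 and 2 of either genotype. In the mutants a bacterial artificial chromosome carried Sall1 driven by regulatory DNA of Wt1, which is active in somatic cells of the gonad. The transgenic mice were generated by morula aggregation from female embryonic stem cells, either C57BL/6J or a hybrid of C57BL/6J and 129. Whether the sequenced embryos came from the aggregation itself or from later breeding is not stated. The methods give wild-type CD1 gonads for RNA-seq, whereas other passages call the controls littermates, and the names of the wild-type columns contain B6. All 4 libraries were total RNA of whole ovaries at stage E13.5, and the labels give no other treatment. Genotype and strain background cannot be told apart with these labels. No source says whether a library came from 1 embryo or from several, so the p-values measure the spread between these libraries.

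The neural crest is a population of migratory embryonic cells that leaves the dorsal neural tube and gives rise to the peripheral nervous system with its glia, to the adrenal medulla and to the pigment cells of the skin. Sox10 and Foxd3 are transcription factors of early crest cells, and Sox10 stays active in glia and melanoblasts. Sympathetic neurons innervate the ovary and its ligaments and make noradrenaline from tyrosine by a chain of enzymes that includes Th and Dbh. In whole tissue, fewer cells of a type and less RNA per cell cannot be told apart.

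Total counts lay between 11036313 and 17869840 per library, and the floor of 3 counts used below corresponded to 0.170 to 0.272 CPM (counts scaled by the TMM-normalised library size). Sall1 itself had 1243 and 1445 counts in mutant replicates 1 and 2 and 279 and 223 counts in wild-type replicates 1 and 2, in the direction of the labels. Genes of the ovarian somatic cells (Wt1, Foxl2, Gata4, Nr5a1, Fst and Lhx9) were present in every library, with a summed level of 1022 to 1227 CPM. Wild-type replicate 1 stood apart in skeletal muscle genes. Their summed level was 256 CPM there, against 38.8 CPM in wild-type replicate 2 and 70.6 and 43.3 CPM in mutant replicates 1 and 2.

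Per kilobase of the longest protein-coding transcript, Dct had the highest mean level of the 7 genes (5.05 CPM per kilobase over the 4 libraries), followed by Stmn2 (2.90) and Tubb3 (2.54), then Sox10 (0.488), Th (0.195), Dbh (0.0573) and Foxd3 (0.0184). Stmn2 lay above Tubb3 in each of the 4 libraries, but the ranges of these neighbours overlapped, at 2.16 to 3.54 and 1.85 to 3.06 CPM per kilobase. The range of Dct, 3.06 to 9.02 CPM per kilobase, also overlapped that of Stmn2, which was higher than Dct in wild-type replicate 1. Between Tubb3 and Sox10 the ranges were separate, as the highest library of Sox10 reached 1.44 CPM per kilobase. Th, Dbh and Foxd3 all lay inside the range of Sox10, from 0 to 1.44.

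**Figure D1:**
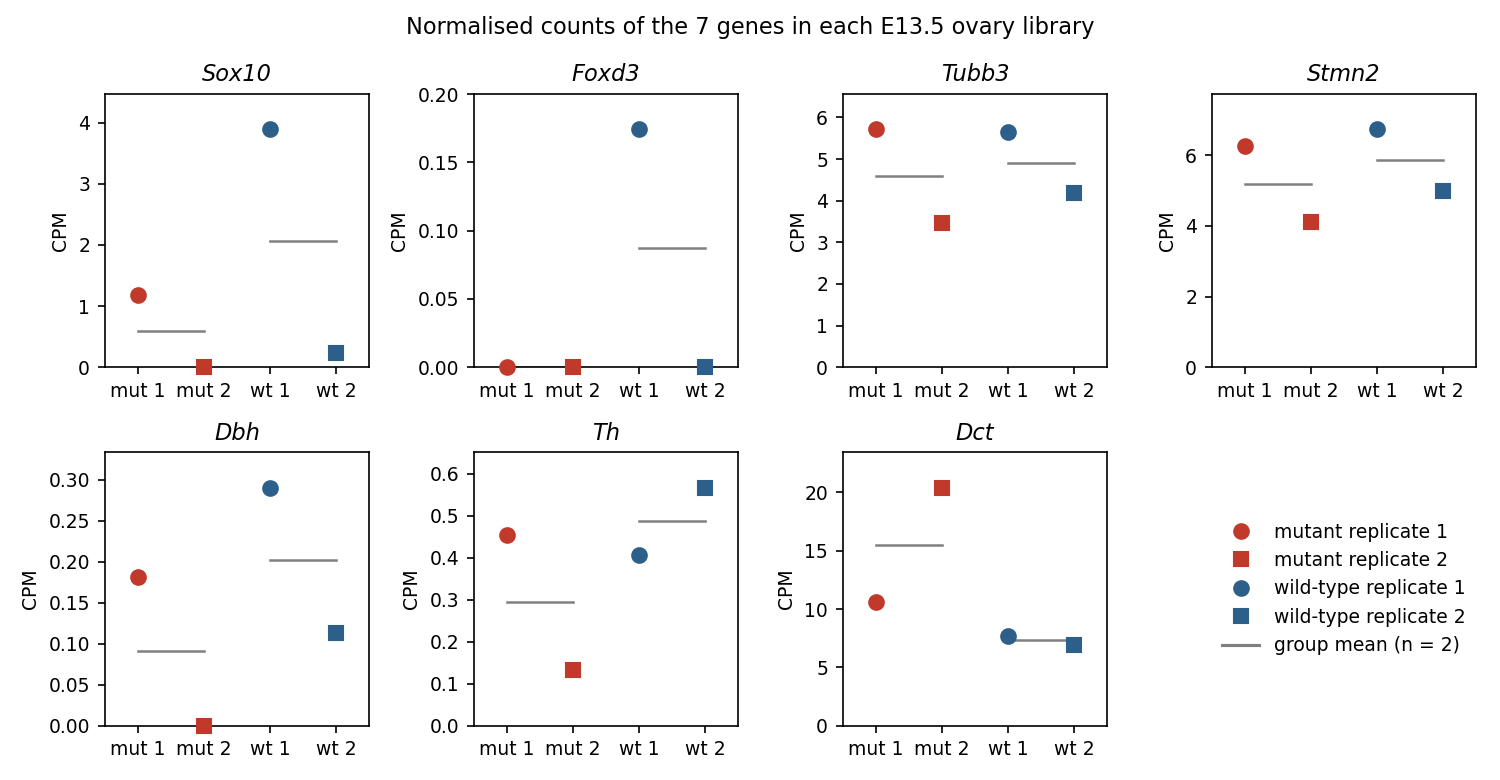
Normalised counts (CPM, linear axes from 0, each with its own scale) of the 7 genes in the 4 libraries, with circles for replicate 1, squares for replicate 2, red for mutant, blue for wild-type and a grey line for the mean of each group (n = 2). Sox10 is near 0 in both replicate 2 libraries, Tubb3 and Stmn2 are lower in replicate 2 of each group, and Dct is highest in mutant replicate 2.

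Sox10 was found mainly in a single library. This gene, which encodes the transcription factor that keeps neural crest cells and glia in their identity (chr15:78985343-78994920, minus strand, mm9), had 13 and 0 counts in mutant replicates 1 and 2 and 67 and 4 counts in wild-type replicates 1 and 2. In CPM these are 1.18, 0, 3.89 and 0.227. Wild-type replicate 1 held 73.5% of the summed CPM and mutant replicate 1 held 22.3%, so both replicate 1 libraries were above both replicate 2 libraries, and the genotypes overlapped.

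The mutant libraries averaged 0.590 ± 0.834 CPM for Sox10 (SD, n = 2) and the wild-type libraries 2.06 ± 2.59 CPM (SD, n = 2). The fitted difference between mutant and wild-type was -1.92 ± 1.46 (log2, SE) and did not pass (adjusted p = 1.00, edgeR's quasi-likelihood F test, Benjamini-Hochberg adjusted over 15442 genes). Without wild-type replicate 1 its sign turned, with a log2 difference of 1.23.

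By replicate number, in a fit with genotype as a term and 1 residual degree of freedom per gene, Sox10 was lower in replicate 2 by -4.38 ± 0.61 (log2, SE; adjusted p = 0.000581 by edgeR's quasi-likelihood F test, Benjamini-Hochberg adjusted). Within the wild-type group the level was 17.2 times higher in replicate 1 than in replicate 2. The exact 95% interval of this ratio was 6.41 to 64.9 (counting error only). Within the mutant group, 13 against 0 counts gave an exact 95% lower bound of 4.16 times (counting error only). With 3 counts taken as the floor of the library at 0, the mutant ratio was 5.92. Wild-type replicate 1 in turn exceeded mutant replicate 1 by 3.30 times (1.81 to 6.52). Sox10 passed the filter on low counts only through its replicate 1 libraries, so its place among the tested genes already required a difference of this kind. The call also needed the genotype term, and with replicate number alone the adjusted p was 0.202.

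Foxd3, a repressor and early crest factor that also marks glial precursors (chr4:99322990-99325362, plus strand, mm9), had 3 counts in wild-type replicate 1 and 0 in the other 3 libraries. Its single library with counts lies at the floor, and a difference was not detectable at this depth. The small model BX005053.1 overlaps Foxd3 on the same strand, so even these reads may be shared.

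The genes of the neuronal cytoskeleton had counts in every library. Tubb3, the neuron-specific β-tubulin (chr8:125935324-125945915, plus strand, mm9), had 63 and 52 counts in mutant replicates 1 and 2 and 97 and 74 in wild-type replicates 1 and 2, or 5.72, 3.46, 5.64 and 4.19 CPM. Stmn2, a regulator of microtubules in growing axons (chr3:8509527-8561604, plus strand, mm9), had 69, 62, 116 and 88 counts in the same order, or 6.26, 4.12, 6.74 and 4.99 CPM. For both genes the replicate 1 libraries were the higher ones of each genotype, and mutant and wild-type libraries overlapped.

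Tubb3 averaged 4.59 ± 1.60 CPM in the mutant and 4.92 ± 1.02 CPM in the wild-type libraries (SD, n = 2 each), and Stmn2 averaged 5.19 ± 1.51 and 5.86 ± 1.24 CPM. The differences between mutant and wild-type were -0.11 ± 0.34 for Tubb3 and -0.18 ± 0.31 for Stmn2 (log2, SE), and each had an adjusted p of 1.00 (edgeR's quasi-likelihood F test, Benjamini-Hochberg adjusted). Neither difference exceeded its error, and the sign of each turned when mutant replicate 2 or wild-type replicate 1 was left out, where Tubb3 came to 0.22 and 0.12 and Stmn2 to 0.093 and 0.048.

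The differences of replicate 2 from replicate 1 were -0.56 ± 0.25 for Tubb3 and -0.51 ± 0.24 for Stmn2 (log2, SE). These did not pass (adjusted p = 0.265 and 0.283, edgeR's quasi-likelihood F test, Benjamini-Hochberg adjusted). The Tubb3 ratio of replicate 1 to replicate 2 was 1.65 (1.13 to 2.44) in the mutant and 1.34 (0.983 to 1.84) in the wild-type group, and the Stmn2 ratio was 1.52 (1.06 to 2.18) and 1.35 (1.02 to 1.80), with exact 95% intervals for counting error only. Tubb3 lies inside the long model Gm20388 on the same strand, and the β-tubulins are a family of similar copies, so its counts are uncertain to that extent.

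Th and Dbh, enzymes of noradrenaline synthesis, had few counts. Th, tyrosine hydroxylase and the rate-limiting step of the chain (chr7:150078657-150117033, minus strand, mm9), had 5 and 2 counts in mutant replicates 1 and 2 and 7 and 10 in wild-type replicates 1 and 2. Dbh, which converts dopamine to noradrenaline (chr2:27020753-27038720, plus strand, mm9), had 2, 0, 5 and 2 counts in that order. The mutant and wild-type libraries shared a count of 2 for Dbh, and on the CPM scale both genes overlapped between genotypes. Th was highest in wild-type replicate 2, whereas Dbh, like Sox10, was highest in wild-type replicate 1.

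The largest ratio within a pair of Th libraries was 4.26, between wild-type replicate 2 and mutant replicate 2, with an exact 95% interval of 0.908 to 40.0 that holds equality. For Dbh the ratio of wild-type replicate 1 to mutant replicate 1 was 1.60 (0.262 to 16.8). When genes of any count were admitted, the adjusted p for genotype was 0.997 for each of Foxd3, Dbh and Th, and for replicate number it was 0.683, 0.686 and 0.934 (edgeR's quasi-likelihood F test, Benjamini-Hochberg adjusted). Differences in these 3 genes were not detectable at this depth.

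Dct was the only member that was highest in mutant replicate 2. It encodes dopachrome tautomerase, an enzyme of melanin synthesis that melanoblasts make early (chr14:118412014-118451468, minus strand, mm9), and had 117 and 307 counts in mutant replicates 1 and 2 and 133 and 122 in wild-type replicates 1 and 2. In CPM these are 10.6, 20.4, 7.73 and 6.91. Both mutant libraries lay above both wild-type libraries, and mutant replicate 2 stood well above the other 3.

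The mean of Dct was 15.5 ± 6.92 CPM in the mutant and 7.32 ± 0.578 CPM in the wild-type libraries (SD, n = 2 each). The log2 difference was 1.09 ± 0.31 (SE; unadjusted p = 0.00995), which did not pass after Benjamini-Hochberg adjustment over all genes tested (adjusted p = 0.537, edgeR's quasi-likelihood F test). Mutant replicate 2 exceeded wild-type replicate 2 by 2.95 times (2.39 to 3.67), and mutant replicate 1 exceeded wild-type replicate 1 by 1.37 times (1.06 to 1.77), with exact 95% intervals for counting error only. The mutant libraries themselves differed by 1.92 times (1.55 to 2.40). With 1 mutant library left, the log2 difference was 1.48 without mutant replicate 1 and 0.53 without mutant replicate 2. By replicate number Dct came to 0.42 ± 0.23 (log2, SE; adjusted p = 0.363 in the same test), higher in replicate 2 of the mutant group and lower in replicate 2 of the wild-type group.

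The other pigment enzymes, Tyr and Tyrp1, had 0 counts in all 4 libraries, which at this depth allows up to 0.170 to 0.272 CPM. The start regions of the 3 pigment enzymes are shown because they share the letters CATGTG, an E-box of the kind bound by Mitf, the master regulator of the melanocyte lineage, although only Dct had counts. Th is shown beside them for the letters TGACGTCA, the cAMP response element. The sequences are RefSeq's on GRCm38.p6, read 5′ to 3′ on the strand of the gene, and capitals mark CATGTG, TGACGTCA or ACAAAG (a core of SOX binding sites), or their reverse complements.
Dct, chr14:118052362-118052496, minus strand: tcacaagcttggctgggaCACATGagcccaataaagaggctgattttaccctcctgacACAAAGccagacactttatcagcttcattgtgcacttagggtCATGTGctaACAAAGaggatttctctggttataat
Tyr, chr7:87493513-87493553, minus strand: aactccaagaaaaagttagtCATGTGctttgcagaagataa
Tyrp1, chr4:80834003-80834192, plus strand: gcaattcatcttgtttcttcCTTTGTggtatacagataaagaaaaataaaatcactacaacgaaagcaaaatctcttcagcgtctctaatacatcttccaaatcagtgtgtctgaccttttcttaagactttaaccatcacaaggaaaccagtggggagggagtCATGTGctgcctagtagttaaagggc
Th, chr7:142900013-142900060, minus strand: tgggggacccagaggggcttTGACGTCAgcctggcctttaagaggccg

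In the 250 bases before the start, counting back from the start as negative positions, CATGTG began at -150 and, on the other strand, at -232 in Dct, at -21 in Tyr and at -46 in Tyrp1. ACAAAG began at -192 and -141 in Dct and, on the other strand, at -190 in Tyrp1, and TGACGTCA began at -45 in Th. Over 32851 such windows of 27025 genes, searched on both strands, 12.3% held CATGTG, 16.5% held ACAAAG and 1.55% held TGACGTCA. Among the other members, Foxd3 held TGACGTCA at -233, Dbh held CATGTG at -165, and Tubb3 held none of the 3 words. The windows of Sox10 and Stmn2 were not analysed here. These matches describe letters and do not show that a factor was bound.

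Counted over the tested members, 0 of 4 passed between mutant and wild-type, where 0.0583% of all 15442 tested genes did (9 genes, 2 higher and 7 lower in the mutant, edgeR's quasi-likelihood F test). At an unadjusted p under 0.05 there were 878 genes, of which 1 was a member (Dct). DESeq2 called 42 genes higher and 63 lower, again with 0 members. The mutant and wild-type libraries did not overlap for 1 of the 4 tested members, Dct, against 30.9% of all genes tested.

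By replicate number, 1 of the 4 tested members, Sox10, was lower in replicate 2 past the threshold, where 2.73% of all tested genes were. Both replicate 2 libraries lay below both replicate 1 libraries for Sox10, Tubb3 and Stmn2, which is 3 of the 4 tested members, against 23.5% of all genes tested, and also for Dbh among the untested ones. Sox10 was tested only because of its replicate 1 libraries, so nothing is read from either count. Both comparisons use the same 4 libraries.

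**Figure D2:**
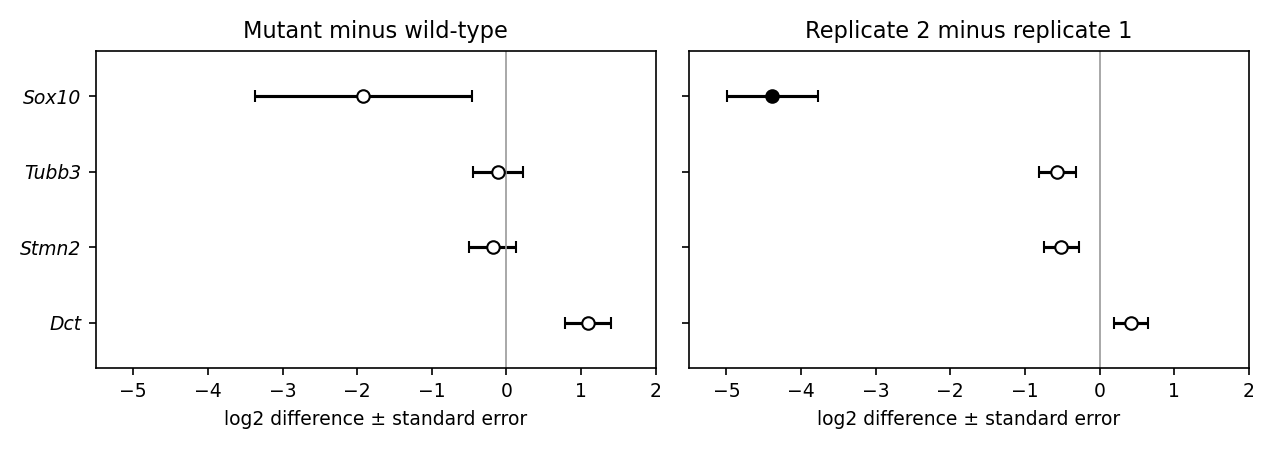
Fitted log2 differences with standard errors of the 4 tested genes, mutant minus wild-type on the left and replicate 2 minus replicate 1 on the right, where a filled point marks an adjusted p under 0.05. The single filled point is Sox10 by replicate number, at -4.38, while the largest difference by genotype in the mutant direction is that of Dct, at 1.09.

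Wider lists of marker genes were laid beside the members, and the counts and medians of a list include the members in it. Of 17 neural crest regulators, 12 were tested, and 0 passed between genotypes. Their median log2 difference of mutant from wild-type was -0.35, or -0.31 without Sox10, where that of all genes was -0.00088. By replicate number 3 of them were lower in replicate 2, namely Sox10, Ednrb and Msx2. The median by replicate was -0.27 for the list, -0.20 without Sox10, and -0.0077 for all genes. Ednrb, the endothelin receptor of migrating crest cells and melanoblasts, had 86 and 97 counts in mutant replicates 1 and 2 and 403 and 109 in wild-type replicates 1 and 2, with a log2 difference by replicate of -1.20 (adjusted p = 0.0231, edgeR's quasi-likelihood F test, Benjamini-Hochberg adjusted). Its excess lay in wild-type replicate 1, at 3.79 times wild-type replicate 2 (3.06 to 4.73), while the mutant ratio of replicate 1 to replicate 2 was 1.21 (0.895 to 1.63). Msx2, a homeobox gene that is also used outside the crest, had 210, 205, 418 and 285 counts, with a log2 difference by replicate of -0.54 (adjusted p = 0.0410 in the same test).

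Apart from the members and the regulators called by replicate number, those with the highest level per kilobase were Ets1, Ngfr, Snai2 and Snai1. Mesenchyme and endothelium use these genes as well. Ngfr, the low-affinity neurotrophin receptor, stood at 53.7 and 44.7 CPM in the mutant and 81.8 and 74.2 CPM in the wild-type replicates. Snai2, a repressor of epithelial genes, stood at 28.1 and 22.8 against 38.4 and 45.4 CPM. For both genes the mutant libraries were below the wild-type libraries without overlap, yet neither passed by genotype (log2 -0.67 and -0.72, adjusted p = 0.266 and 0.309, edgeR's quasi-likelihood F test). Tfap2b, a crest transcription factor, had 0 counts in every library.

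Of 21 genes of glia and Schwann cell precursors, 19 were tested. None passed by genotype (0 of 19, median log2 -0.17), and 2 were lower in replicate 2, Sox10 and Sox2 (median log2 -0.22). Gfap, an intermediate filament gene of glia that was chosen after its values were seen, had 113 and 142 counts in the mutant and 53 and 58 in the wild-type replicates, or 10.3, 9.44, 3.08 and 3.29 CPM. Its mutant libraries lay above its wild-type libraries, against the sign of the list's median, at a log2 difference of 1.63 ± 0.23 (SE; unadjusted p = 0.000239, adjusted p = 0.125, edgeR's quasi-likelihood F test). Sox2, which is also a germ cell and stem cell factor, had 480, 492, 744 and 539 counts in the usual order, with a log2 difference by replicate of -0.46 (adjusted p = 0.0254, edgeR's quasi-likelihood F test). Apart from the members and Sox2, the glial genes highest per kilobase were Pmp22, Ngfr, Metrn and Mbp. Of these Pmp22, a myelin protein, had between 622 and 1155 counts.

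Several genes chosen after their values were seen were, like Sox10, highest in wild-type replicate 1. Cdh19, a cadherin of Schwann cell precursors, had 19 counts there and 1, 0 and 0 elsewhere, and Zic1, an early crest and neural plate factor, had 49 counts there and 3, 0 and 1 elsewhere. Fabp7, a lipid-binding protein of glia, had 86 counts there against 20 and 22 in the mutant libraries and 31 in wild-type replicate 2. The share of summed CPM in wild-type replicate 1 was 92.4% for Cdh19, 89.6% for Zic1, 53.4% for Ednrb and 49.8% for Fabp7, beside 73.5% for Sox10. Of the 19 tested glial genes 9 were highest in wild-type replicate 1, where 22.5% of all tested genes were. That count includes Sox10, which was tested only through its replicate 1 libraries, so nothing is read from the count. Cdh19 and Zic1 did not pass the filter and are not in it.

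Most muscle genes were also highest in wild-type replicate 1. Of 9 skeletal muscle genes, 8 were tested and 7 of them were lower in replicate 2 (Myod1, Myog, Myh3, Acta1, Actc1, Ttn and Chrna1), with a median log2 difference of -3.33, and 0 passed by genotype (median -1.83). Myh3, the embryonic myosin heavy chain, had 1577 counts in wild-type replicate 1 and 58, 21 and 24 in mutant replicates 1 and 2 and wild-type replicate 2. Myod1 and Chrna1 were tested only through their replicate 1 libraries. With replicate number alone, without genotype, 0 of the 15 listed genes called lower in replicate 2 passed, those of muscle included. Myf5, an early muscle regulator, had at most 5 counts and 0 in wild-type replicate 2. The part of the muscle genes in the Sox10 result was not tested. In mutant replicate 1, where Sox10 had 13 counts, Acta1 had 71 and Myog 57 counts, against 9 and 16 in mutant replicate 2.

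**Figure D3:**
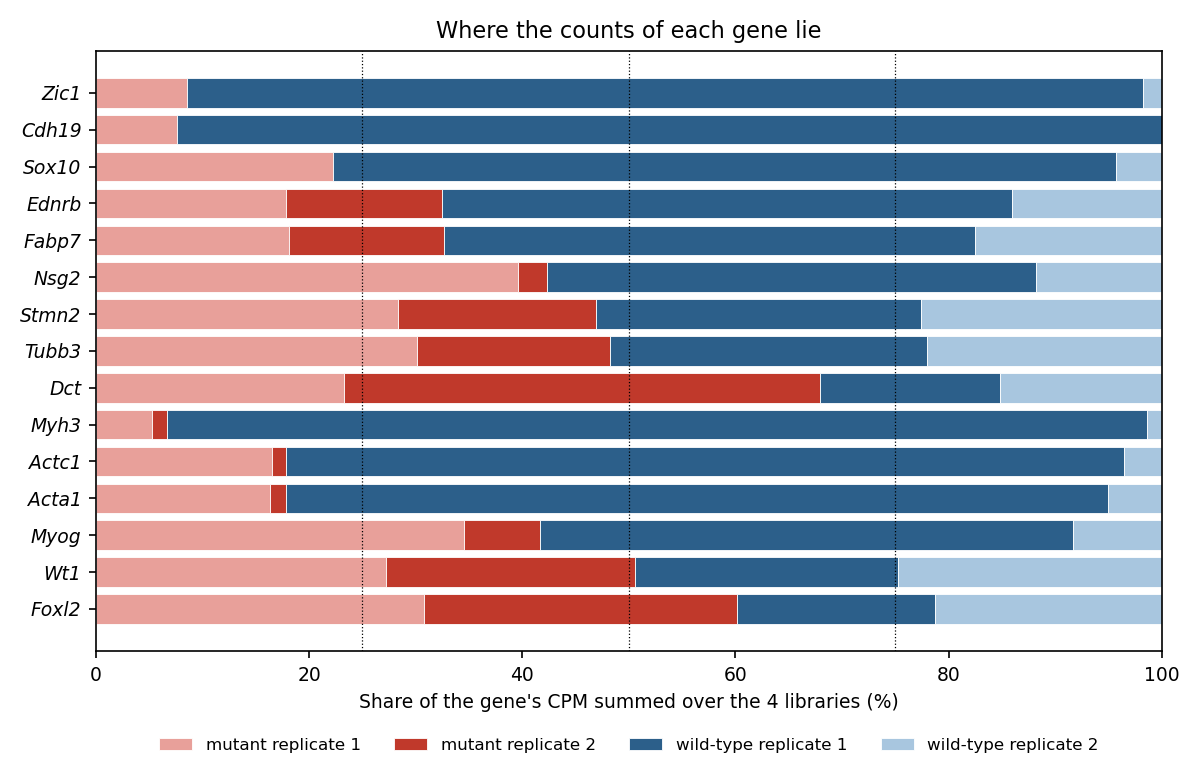
Share of the CPM of each gene, summed over the 4 libraries, that lies in each library, as stacked bars from 0 to 100% with dotted lines at 25, 50 and 75%. Wild-type replicate 1 (dark blue) holds 73.5% of Sox10 and 92.0% of Myh3, about 30% of Tubb3 and Stmn2, and 16.9% of Dct, while Wt1 is spread evenly over the libraries.

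Of 23 pan-neuronal genes, 17 were tested, 0 passed by genotype (median log2 -0.11) and 1 was lower in replicate 2 (median -0.29). That gene, which like Sox10 passed the filter only through its replicate 1 libraries, was Nsg2, a neuronal endosome protein, with 21 and 2 counts in the mutant and 38 and 10 in the wild-type replicates (log2 -2.51, adjusted p = 0.0109, edgeR's quasi-likelihood F test). Nsg2 was higher in replicate 1 of both genotypes, as were Tubb3 and Stmn2. Apart from Nsg2 and the members Tubb3 and Stmn2, the pan-neuronal genes highest per kilobase were Nsg1, Dpysl3, Kif5c and Gap43. Gap43, a growth cone protein, had 58, 31, 79 and 56 counts. Its log2 difference by replicate of -0.90 did not pass (adjusted p = 0.115 in the same test). Below 0 by replicate number were 15 of the 17 tested pan-neuronal genes, where 51.4% of all tested genes were. That count includes the members Tubb3 and Stmn2, and Nsg2 with its dependence on the filter, so nothing is read from it. Without Tubb3 and Stmn2 the median by replicate was -0.25.

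Of 25 genes of sympathetic and autonomic neurons, 16 were tested and 0 passed in either comparison, with medians of -0.12 by genotype and -0.36 by replicate (log2). Slc18a2, the vesicular monoamine transporter, had 0 counts in every library. Phox2a, a transcription factor of autonomic neurons that was chosen after its values were seen, had 8 to 22 counts. The listed genes with the highest level per kilobase were Gata2, Cyb561, Maoa and Ddc, which many other cells express. Gata2, for example, had 967 to 1483 counts.

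Of 15 melanoblast genes, 10 were tested and 0 passed by genotype, with a median log2 difference of 0.23, and 2 were lower in replicate 2, Sox10 and Ednrb (median -0.17). Kit, the receptor of melanoblasts and also of germ cells, had 2267 to 3134 counts. Mitf had 72 and 80 counts in the mutant and 109 and 78 in the wild-type replicates, or 6.53, 5.32, 6.34 and 4.42 CPM, and its order differed from that of Dct. Pmel, a melanosome matrix protein that was chosen after its values were seen, had 16, 33, 11 and 24 counts (log2 0.87 between mutant and wild-type, adjusted p = 1.00, edgeR's quasi-likelihood F test). Pmel, like Dct, was highest in mutant replicate 2, at 2.19 CPM, and Mitf in mutant replicate 1. Mlph, a melanosome transport gene also chosen after its values were seen, had 1.91 and 1.79 CPM in the mutant and 1.05 and 0.793 CPM in the wild-type replicates (log2 1.00, unadjusted p = 0.0434, adjusted p = 0.857, edgeR's quasi-likelihood F test). Both mutant libraries lay above both wild-type libraries for Dct, Pmel, Mlph, Kit and Oca2, and below them for Rab38. They overlapped for Mitf, Slc24a5, Ednrb and Sox10. Among all genes tested, 30.9% did not overlap in one direction or the other.

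Of 13 genes for ligands that crest derivatives respond to, 8 were tested and 0 passed in either comparison (medians -0.24 by genotype and -0.06 by replicate, log2). The most abundant per kilobase were Bmp7, Cxcl12, Sema3a and Edn3. Edn3, the ligand of Ednrb, had 133 and 166 counts in the mutant and 224 and 234 in the wild-type replicates, without the excess that its receptor had in wild-type replicate 1.

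**Figure D4:**
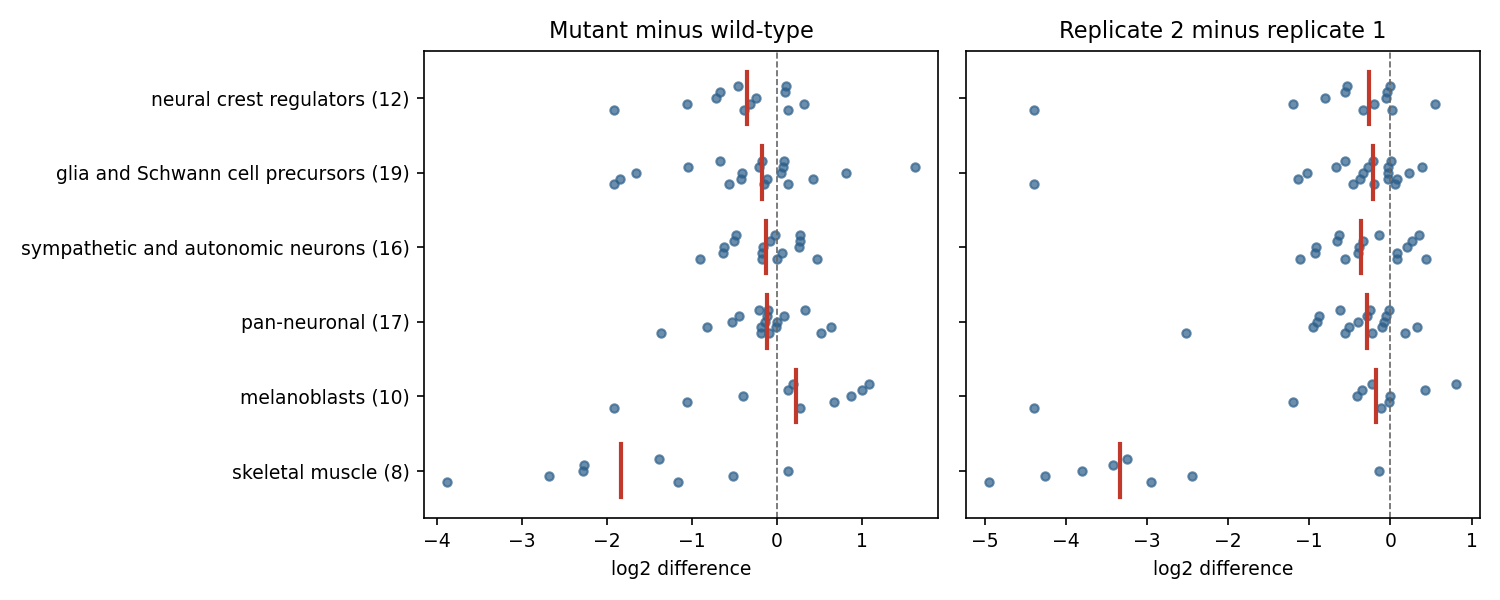
Fitted log2 differences of the tested genes of 6 lists (points, number tested in brackets) with the median of each list as a red bar, mutant minus wild-type on the left and replicate 2 minus replicate 1 on the right. By replicate, the genes of the upper 5 lists lie between -1.20 and 0.81 apart from Sox10 at -4.38 and Nsg2 at -2.51, while the muscle genes have a median of -3.33.

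Markers of other cells that the dissection could hold were also counted. Of 6 parasympathetic and enteric genes, 1 was tested (Nos1, log2 0.85 by genotype, adjusted p = 0.181 by edgeR's quasi-likelihood F test), and Vip and Gal had at most 4 counts. Of 9 sensory neuron genes 5 were tested, of 10 genes of the central nervous system 2, of 6 chromaffin cell genes 3 and of 7 adrenal cortex genes 5, and 0 of these passed in either comparison. Pnmt, which turns noradrenaline into adrenaline in chromaffin cells, had 4 to 6 counts.

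Of the ovary's own cells and its vessels, 0 listed genes passed by genotype. By replicate number 1 of 6 tested mesonephric genes was higher in replicate 2 (Cdh16, log2 1.90), as was 1 of 5 germ cell genes (Stra8, 0.47). Lower in replicate 2 were 1 of 6 ovarian somatic genes (Gata4, -0.38) and 2 of 5 genes of endothelium and blood, the embryonic globins Hbb-y (-1.42) and Hba-x (-1.75).

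The profiles most like those of the members over the 4 libraries were found by the distance between centred log2 CPM values. Among the 3 nearest to Sox10 were Acta1 (distance 0.440) and Slpi (0.565), where the profile of Sox10 itself spans 4.94. Acta1 had 71, 9, 523 and 35 counts. Nearest to Tubb3 were AK133650_gene (0.0420), 1810026B05Rik (0.0522) and Usp18 (0.0631), and nearest to Stmn2 were Draxin (0.0353), Lpar1 (0.0366) and Nxt2 (0.0443), with profile ranges of 0.70 and 0.69. Nearest to Dct were Cpa4 (0.180), H2-Oa (0.258) and Atp6ap1l (0.271), with counts of 17, 39, 18 and 15 for Cpa4. With 4 libraries many genes share such an order.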

How the data were processed

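The authors aligned the reads with STAR (2.6.1d and mm9, per the submitters' processing notes) and deposited read counts per gene, neither normalised nor pooled. The annotation and strand setting of the counting are not given in the sources used here. All 4 columns were matched to libraries by genotype and replicate number, and 0 were left unused.

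Counts were read into R 4.3.3 and tested with edgeR 4.0.16 (filterByExpr with its default minimum of 10 counts, TMM, quasi-likelihood F test, Benjamini-Hochberg adjustment over all 15442 genes, threshold 0.05). Genotype alone was fitted for mutant against wild-type, and genotype plus replicate number for the replicates. Library profiles used a prior count of 2. At this size exact permutation tests of single genes cannot go below p = 0.333, so none was run. Libraries of a group differed beyond sampling noise (chi-square per degree of freedom 11.8 and 13.2) and were kept separate. The intervals of ratios are exact binomial ones.

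The members and 16 marker lists (185 entries, 1 matched by an older symbol) were chosen with earlier results of these data known. Genes named were the members, listed genes past the threshold, up to 4 others per list with the highest level per kilobase, listed genes at 0, Sall1, and the 3 nearest profiles, and others are marked as chosen after their values were seen. Positions and lengths are those of GENCODE M1 on mm9, and promoter sequences those of RefSeq on GRCm38.p6. Alternatives were RLE scaling, DESeq2 1.42.0, other filters, the replicate block, replicate number alone, and each library left out. Scripts were tested on simulated data. Some results are not reported here.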

Additional observations from a re-analysis of the deposited data

Results flagged for a closer look

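Dct had replicate differences of opposite sign in the 2 genotypes. On the log2 CPM scale, replicate 2 was higher than replicate 1 by 0.93 in the mutant group and differed by -0.16 in the wild-type group. With 1 library per genotype and replicate number, the difference between these differences was not tested. The ratio of wild-type replicate 1 to replicate 2 was 1.12, with an exact 95% interval of 0.868 to 1.44 that holds equality, so the mutant pair alone differed beyond counting error.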

How the results depend on the processing

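Between genotypes, 2 genes were called up and 7 down. DESeq2 called 42 and 63, no filter 9 and 19, and at least 10 counts in every library 5 and 14. Leaving out 1 library at a time, with the lone library assumed to vary like the others, gave 1 to 42 up, 3 to 88 down and 0 to 1 members up. The log2 difference by genotype then ranged from 0.53 to 1.48 for Dct, from -8.10 to 1.23 for Sox10, from -0.51 to 0.22 for Tubb3 and from -0.51 to 0.093 for Stmn2. The sign turned for Sox10 without wild-type replicate 1 (1.23), for Tubb3 without mutant replicate 2 or wild-type replicate 1 (0.22 and 0.12), and for Stmn2 in the same cases (0.093 and 0.048). The cause was not tested.

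By replicate number, 241 genes were called higher and 421 lower in replicate 2. DESeq2 called 44 and 81, and no filter gave 156 higher. With replicate number alone 3 and 1 were called, and Sox10 (log2 -4.35, adjusted p = 0.202 by edgeR) was lost, leaving 0 members. At least 10 counts in every library removed Sox10, again leaving 0. Sox10 passed with RLE scaling, no filter and DESeq2 (adjusted p between 0.00188 and 0.0344). Within a single genotype, with no test, Sox10 ranged from -7.10 to -4.05, where the lower value depends on the prior count, and Dct from -0.16 to 0.96.

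The labels share replicate numbers without saying what these mark. The library numbers in the column names are consecutive between the genotypes within each replicate number, and what they record is not stated. The replicate differences of the genotypes correlated across genes at 0.481. With the replicate block 180 genes were called up and 205 down, and Dct was the 1 member up (log2 1.04, adjusted p = 0.0200 by edgeR). Of the listed genes, where 0 passed without the block, 6 then passed up (Bmp4, Dct, Foxl2, Gfap, Nos1 and Pax8) and 11 down, among them Ngfr, Snai2, Lhx9, Kdr and 4 muscle genes.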
